A study of Mus musculus with 6 samples.

Results

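The L1Md_F subfamily peaks are the H3K9me3 peaks of Bergmann glia (BG) whose repeat annotation carries a name that starts with L1Md_F. They were taken from the list of peaks found in wild-type (WT) BG and not in Setdb1 mutant (MT) BG by that annotation alone, and numbered 1088 of 34673 peaks, or 3.14% of the list (95% Wilson interval 2.96% to 3.33%). Of these, 790 lay on L1Md_F2, 170 on L1Md_F and 128 on L1Md_F3. For comparison the list held 732 peaks on L1Md_T and 398 on L1Md_A or L1Md_Gf, which are younger relatives.

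The libraries came from BG of C57BL/6 mice at postnatal day 10, with 2 WT and 2 MT libraries made with an antibody to H3K9me3 and 2 input libraries whose antibody field reads IgG. In the mutant, mGFAP-Cre removes the floxed Setdb1 gene, and this Cre is also active in other cerebellar cells, among them oligodendrocytes and granule neuron precursors. Nothing read here says that the libraries of a genotype came from separate animals. The paper used mice of either gender, and the sex of the animals behind each library was not taken into account. The list gives 1 merged value a peak and no value in MT or input, so the read depth behind a peak is unknown, no peak has a replicate error, and the intervals below cover counting error over peaks only. Peaks on copies of 1 repeat share sequence and are not independent of each other.

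LINE-1 (L1) elements are retrotransposons that copy themselves through RNA. A full copy has a promoter at its 5′ end, which in mice is built of tandem units called monomers, then ORF1, which encodes an RNA-binding protein, and ORF2, which encodes the endonuclease and reverse transcriptase, and ends in a 3′ end with a poly(A) tail. Setdb1 is a histone methyltransferase that places H3K9me3, a mark of silent chromatin, and L1Md_F is a group of mouse L1 subfamilies older than L1Md_T and L1Md_A.

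The sequences of the highest-scoring peak of each of the 3 names are shown first, as examples of the sequence under the strongest peaks. Each line gives the central 200 bases in the mm10/GRCm38 build, 5′ to 3′, with CpG in capitals. The L1Md_F stretch is chr10:3471335-3471534 on the plus strand, the L1Md_F2 stretch is chrX:34468579-34468778 on the minus strand, and the L1Md_F3 stretch is chr7:116792237-116792436, given on the plus strand because its sense strand could not be told.
L1Md_F: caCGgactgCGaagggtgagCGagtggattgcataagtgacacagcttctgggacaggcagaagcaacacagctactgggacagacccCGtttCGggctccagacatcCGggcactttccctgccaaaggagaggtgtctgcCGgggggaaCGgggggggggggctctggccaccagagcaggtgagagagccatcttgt
L1Md_F2: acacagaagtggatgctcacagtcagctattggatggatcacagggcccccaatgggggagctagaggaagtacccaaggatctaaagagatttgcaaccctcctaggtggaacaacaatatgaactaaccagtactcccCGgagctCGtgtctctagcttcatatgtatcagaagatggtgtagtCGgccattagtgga
L1Md_F3: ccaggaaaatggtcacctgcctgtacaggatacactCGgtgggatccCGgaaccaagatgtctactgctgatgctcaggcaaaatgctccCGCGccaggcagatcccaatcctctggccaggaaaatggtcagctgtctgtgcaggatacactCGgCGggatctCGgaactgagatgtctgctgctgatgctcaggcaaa
The L1Md_F stretch holds 8 CpG, the L1Md_F3 stretch 7 and the L1Md_F2 stretch 3. The whole L1Md_F peak holds a run of 80 bases that recurs 222 bases further on at 88.8% identity, and the L1Md_F3 peak holds one that recurs after 117 bases at 92.5% identity. The L1Md_F2 peak holds no such repeated unit and lies at the 3′ end of its element.

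Each peak was placed along a reference copy, an L1Md_F2 element of 6393 bp at chr6:5647038-5653430 on the minus strand, on which ORF1 runs from base 735 to 1646 and ORF2 from 1859 to 5696. The reference copy carries a peak of score 11.2 itself. The 120 bases in which the most L1Md_F family peaks were centred at the 5′ end span positions 377 to 496 and hold 97 centres. They are given for the reference copy (chr6:5652935-5653054, minus strand) and for the highest-scoring peak of each name that spans them, with the bases that differ from the reference copy in capitals. The L1Md_F stretch is chr6:131595084-131595202 (plus strand), the L1Md_F2 stretch chr16:59793789-59793908 (plus strand) and the L1Md_F3 stretch chr10:29096574-29096694 (minus strand).
Reference copy: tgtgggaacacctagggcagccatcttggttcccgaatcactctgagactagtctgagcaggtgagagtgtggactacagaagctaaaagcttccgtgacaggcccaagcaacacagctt
L1Md_F: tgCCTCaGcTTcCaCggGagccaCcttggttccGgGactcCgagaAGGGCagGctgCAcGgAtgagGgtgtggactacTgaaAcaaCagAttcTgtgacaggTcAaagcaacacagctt
L1Md_F2: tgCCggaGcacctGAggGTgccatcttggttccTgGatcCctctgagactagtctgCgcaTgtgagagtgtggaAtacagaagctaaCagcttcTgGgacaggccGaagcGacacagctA
L1Md_F3: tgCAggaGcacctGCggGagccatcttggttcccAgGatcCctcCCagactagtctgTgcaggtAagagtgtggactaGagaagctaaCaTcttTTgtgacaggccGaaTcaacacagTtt
Over this stretch the L1Md_F peak was 70.7% identical to the reference copy, the L1Md_F2 peak 84.2% and the L1Md_F3 peak 82.6%. At the 3′ end the densest 120 bases, positions 6022 to 6141, hold 152 centres. They are shown for the reference copy (chr6:5647290-5647409, minus strand), L1Md_F2 (chrX:34468639-34468761, minus strand) and L1Md_F3 (chr4:122415971-122416090, minus strand), with differing bases again in capitals. None of the 94 aligned L1Md_F peaks lay there, and 76 of 170 L1Md_F peaks did not align.
Reference copy: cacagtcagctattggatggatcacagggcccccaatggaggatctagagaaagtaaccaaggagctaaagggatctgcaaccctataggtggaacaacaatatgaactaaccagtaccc
L1Md_F2: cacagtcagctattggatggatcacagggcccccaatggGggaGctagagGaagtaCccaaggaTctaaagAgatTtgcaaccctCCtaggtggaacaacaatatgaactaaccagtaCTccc
L1Md_F3: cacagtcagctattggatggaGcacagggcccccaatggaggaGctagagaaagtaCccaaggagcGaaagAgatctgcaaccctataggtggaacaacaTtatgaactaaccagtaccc
Here the L1Md_F2 peak was 91.1% and the L1Md_F3 peak 95% identical to the reference copy, so the peaks printed for the 3′ end were closer to the reference copy than those printed for the 5′ end.

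L1Md_F family peaks lay at the ends of the element and almost never in its middle. Of the 859 peaks that aligned to the reference copy at 80% identity or more, 265 (30.8%, 27.9% to 34.0%) were centred before ORF1, 176 (20.5%, 17.9% to 23.3%) in the last 1 kb of ORF2, and 388 (45.2%, 41.9% to 48.5%) after ORF2. The stretch from ORF1 to the last 1 kb of ORF2 covers 3962 of 6393 bp and held 30 peaks (3.49%, 2.46% to 4.94%). The borders of these 4 zones were set after the profile had been seen.

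The 3 names differed in where their peaks lay. Of 94 aligned L1Md_F peaks, 86 (91.5%) lay before ORF1 and 0 after ORF2. The other 76 of 170 L1Md_F peaks did not align, so their place on the reference copy is unknown. Of 664 aligned L1Md_F2 peaks, 157 (23.6%) lay before ORF1, 141 (21.2%) in the last 1 kb of ORF2 and 342 (51.5%) after ORF2. Of 101 aligned L1Md_F3 peaks, 22 (21.8%) lay before ORF1, 31 (30.7%) in the last 1 kb of ORF2 and 46 (45.5%) after ORF2. The share before ORF1 was lower in L1Md_F2 than in L1Md_F (difference -67.8 percentage points, 95% Newcombe interval -73.0 to -59.7), while L1Md_F2 minus L1Md_F3 gave 1.86 points (-7.65 to 9.58). In the last 1 kb of ORF2 the share was lower in L1Md_F2 than in L1Md_F3 (difference -9.46 points, -19.5 to -0.677). Repeat names are assigned from sequence, and 5′ ends and 3′ ends of 1 element can carry different names, so the place of a peak and its name are not independent measures.

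**Figure D1:**
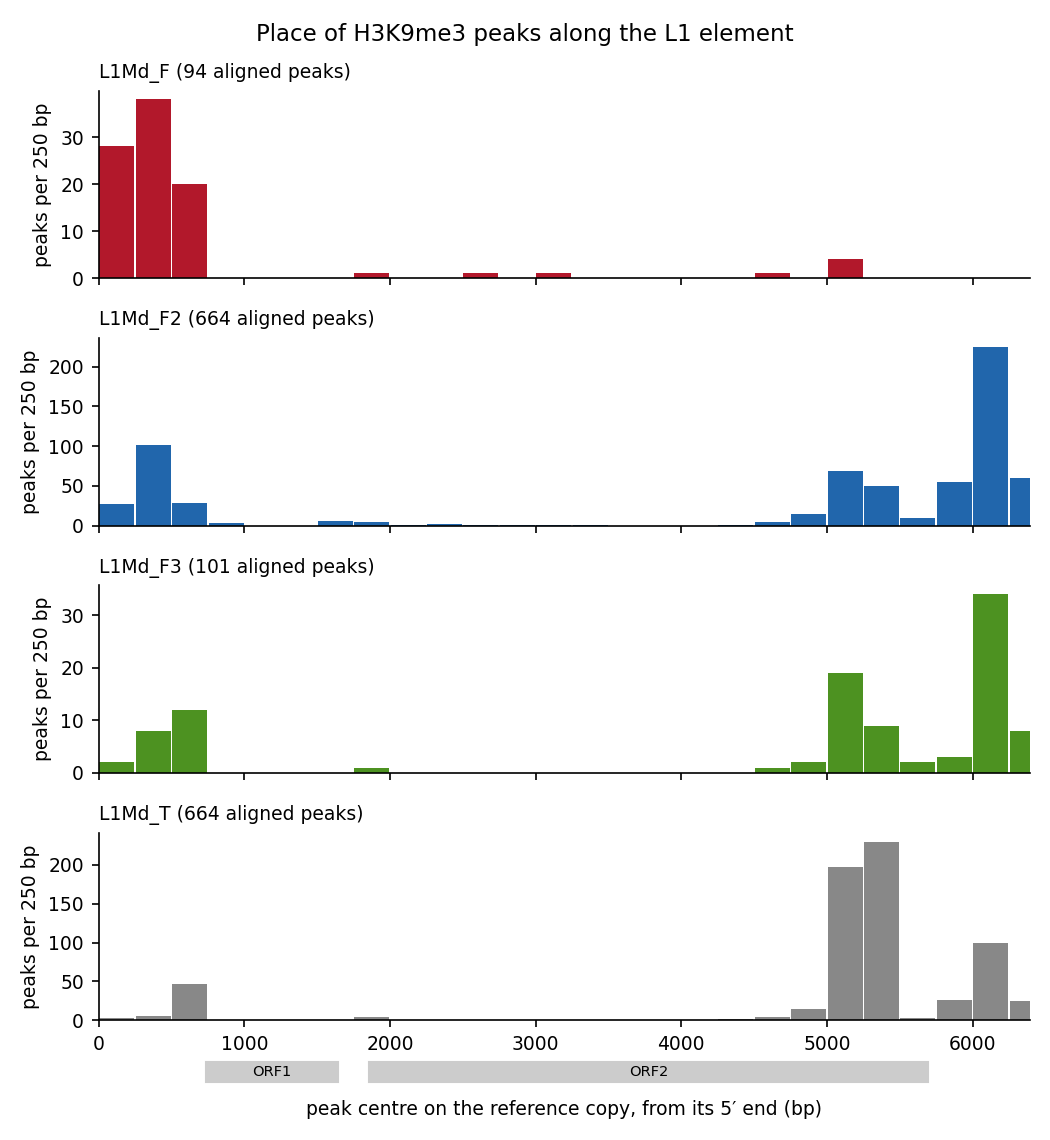
Number of peaks per 250 bp (vertical axis) by the place of the peak centre on the reference copy (horizontal axis, bp from its 5′ end), in 1 panel each for L1Md_F, L1Md_F2, L1Md_F3 and L1Md_T, with ORF1 and ORF2 drawn as grey bars. Only aligned peaks are drawn. L1Md_F peaks sit mostly before ORF1, and L1Md_F2 and L1Md_F3 peaks at both ends with the highest bar after ORF2. L1Md_T peaks sit mostly in the last 1 kb of ORF2, while the middle is nearly empty in all 4 panels.

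Over all aligned peaks the family and L1Md_T differed in the part of the 3′ side that held peaks, but not detectably so among peaks of unique sequence. In L1Md_T, 446 of 664 aligned peaks (67.2%) lay in the last 1 kb of ORF2 and 151 (22.7%) after ORF2. The share in the last 1 kb of ORF2 was lower in the L1Md_F family (difference -46.7 points, -51.0 to -42.1), and the shares before ORF1 (22.6 points, 18.8 to 26.2) and after ORF2 (22.4 points, 17.7 to 26.9) were higher. The middle held 3.49% of L1Md_F family peaks and 1.81% of L1Md_T peaks, a difference of 1.69 points (0.00381 to 3.33). Among peaks whose 150-base windows all occur once in the genome, 598 members and only 21 L1Md_T peaks, these differences had wide intervals that included 0. They were -2.56 points (-23.5 to 16.3) before ORF1, 3.51 points (-12.0 to 5.31) in the middle, 2.35 points (-17.2 to 9.78) in the last 1 kb of ORF2 and -3.30 points (-23.7 to 16.4) after ORF2. Of 317 aligned L1Md_A or L1Md_Gf peaks, 13.9% lay before ORF1, 55.2% in the last 1 kb of ORF2 and 27.8% after ORF2. Only 17 were unique, and from these the unique members differed by -36.2 points (-50.7 to -12.1) before ORF1. The difference was -14.1 points (-37.5 to -2.54) in the middle and 38.4 points (17.0 to 44.7) after ORF2. In the last 1 kb of ORF2 its interval included 0 (-6.71 to 14.7). Over all aligned peaks the difference before ORF1 was 17.0 points (11.8 to 21.6). Peaks that did not align to this L1Md_F2 copy have no zone and are missing from these shares. Aligned were 79.2% of members, 90.8% of L1Md_T peaks and 79.8% of L1Md_A or L1Md_Gf peaks. Whether the unaligned peaks of L1Md_T, L1Md_A and L1Md_Gf lay at 5′ ends was not tested.

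The copies of each segment in the genome were counted as well. Segments of the reference copy from base 1001 to 4500 had between 19704 and 32555 copies of 80% identity or more, of any L1 name, and between 0 and 9 L1Md_F family peaks lay on the copies of each segment. The segment from 5001 to 5500 had 47125 copies, of which 132 (0.280%, 0.236% to 0.332%) carried an L1Md_F family peak and 412 (0.874%, 0.794% to 0.962%) an L1Md_T peak. The last segment, from 5501 to 6393, reversed that order, with an L1Md_F family peak on 291 (0.599%, 0.534% to 0.672%) and an L1Md_T peak on 130 (0.268%, 0.225% to 0.318%) of 48581 copies. At the other end, 58 of 20014 copies (0.290%) of bases 501 to 1000 carried a member. Of bases 1 to 500, 13 of 350 counted copies (3.71%, 2.18% to 6.25%) did. Yet 57 aligned members were centred in the first 250 bases of the reference copy and 148 in the next 250. A counted copy had to cover 80% of the segment at 80% identity, so most members there lay outside the counted copies. The 350 copies and their 3.71% therefore do not describe 5′ ends in general.

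Uniqueness of sequence also varied along the element. The central 150 bases of a copy, the length of 1 read, occurred once in the genome in 95.7% of the copies of bases 1 to 500, in 60.5% of those of 501 to 1000, in 63.7% to 66.9% of those of the segments from 1001 to 4500, in 68.4% of those of 5001 to 5500 and in 69.1% of those of the last segment. The part of these differences in the profile was not tested. Among copies with such a unique window, 0.738% (0.652% to 0.836%) carried a member in the last segment and 0.479% (0.371% to 0.619%) at 501 to 1000. In the segment from 3501 to 4000 it was 0 of 20117 copies, which allows up to 0.0191%. A peak entered the list only where its signal exceeded its local surroundings several-fold, and the list holds no value for marking spread evenly over an element.

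**Figure D2:**
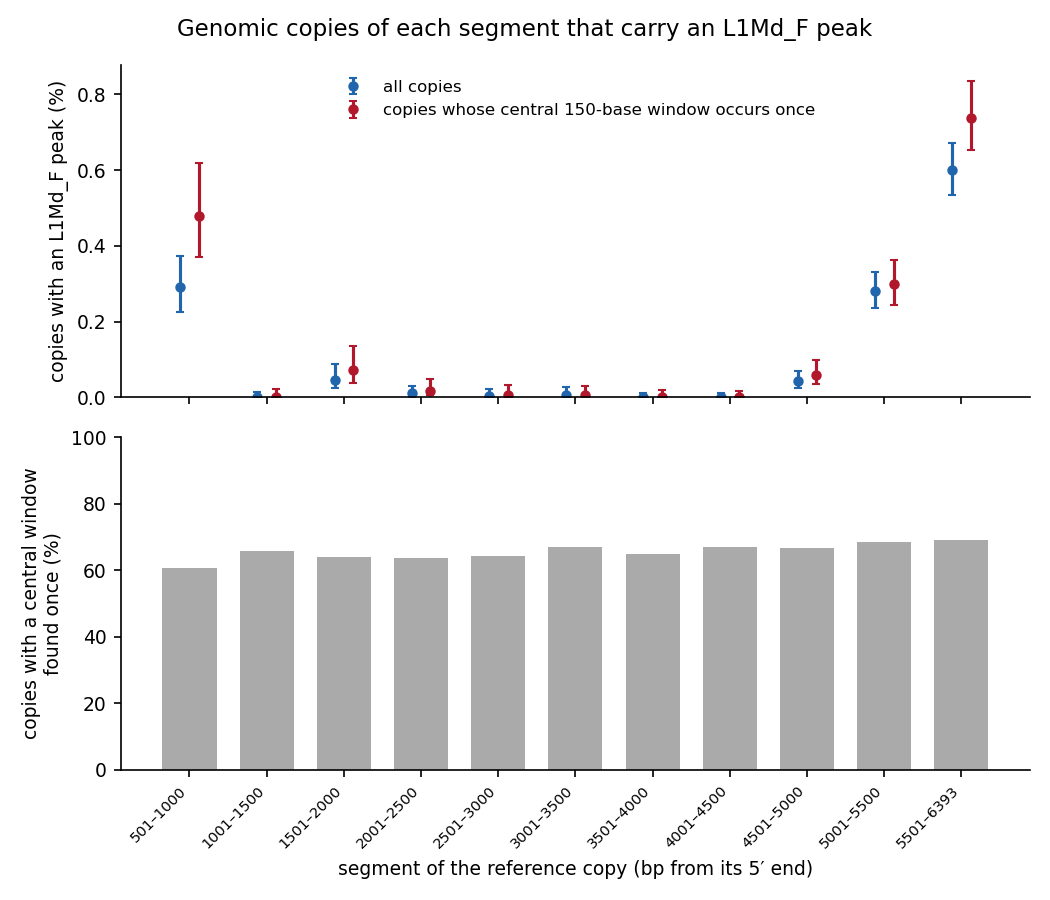
Upper panel, percent of the genomic copies of each segment of the reference copy (horizontal axis, bp from its 5′ end, without the first 500 bp) that carry an L1Md_F family peak, for all copies and for copies whose central 150-base window occurs once, with 95% Wilson intervals. Lower panel, percent of copies whose central window occurs once, which lies between 60.5% and 69.1% over the 11 segments drawn, while the share with a peak is highest in the last segment at 0.599%.

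The peaks of this family could be told apart from other copies far more often than those of younger L1 names. All 150-base windows of the peak occurred once in the genome in 780 of 1085 members on the assembled chromosomes (71.9%, 69.1% to 74.5%), against 39 of 731 L1Md_T peaks (5.34%, 3.93% to 7.21%) and 44 of 397 L1Md_A or L1Md_Gf peaks (11.1%). The difference from L1Md_T was 66.6 points (63.2 to 69.5). A window with 100 or more places in the genome was found in 51 members (4.70%) and in 585 of 731 L1Md_T peaks. Within the family the share of fully unique peaks was 90.9% before ORF1, 40.3% in the last 1 kb of ORF2 and 68.3% after ORF2, so the member zone with the fewest unique peaks was the one in which L1Md_T peaks gathered. Reads with several equal places were set at 1 of them in the alignment, and what part this had in each name's peaks was not tested. Over the 598 aligned and fully unique members alone, 40.3% lay before ORF1, 3.51% in the middle, 11.9% in the last 1 kb of ORF2 and 44.3% after ORF2. The 21 L1Md_T peaks of that kind gave 42.9%, 0%, 9.52% and 47.6%.

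Members also lay near the edge of repeat-masked sequence. The distance from the peak centre to the nearest unmasked run of 100 bp had a median of 578 bp (514 to 612) against 1189 bp (1159 to 1225) for L1Md_T, and 502 members (46.3%) lay within 500 bp of one against 131 L1Md_T peaks (17.9%). Among members the median was 439 bp (390 to 481) before ORF1 and 1830 bp in the middle. It was 1254 bp in the last 1 kb of ORF2 and 494 bp after ORF2. In L1Md_T it was 824 bp (615 to 1040), 2060 bp, 1296 bp and 539 bp in the same order. Only before ORF1 did the intervals not overlap. After ORF2 they were 448 to 570 bp against 457 to 654 bp. The part of the differing zone shares in the difference over all peaks was not tested.

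Tandem units like those of an L1 promoter were found mainly in peaks at the 5′ end. A run of 80 bases that recurred 60 to 250 bases further on at 80% identity or more was found in 205 of 1085 members (18.9%, 16.7% to 21.3%) and in 40 of 731 L1Md_T peaks (5.47%), a difference of 13.4 points (10.5 to 16.2). L1Md_A or L1Md_Gf peaks lay between, with 50 of 397 (12.6%, 9.69% to 16.2%). Before ORF1 lay 30.8% of aligned members but 8.28% of aligned L1Md_T peaks, and the L1Md_T share with such a run was not taken by zone. Such a run was found in 72 of 170 L1Md_F peaks (42.4%), 111 of 787 L1Md_F2 peaks (14.1%) and 22 of 128 L1Md_F3 peaks (17.2%). Before ORF1 it was present in 106 of 265 members (34.3% to 46.0%), with a median spacing of 204 bases, and after ORF2 in 1 of 388.

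The 226 members that did not align to the reference copy resembled the 5′ end in these measures. Of them 95 (42.0%) held repeated units against 110 of 859 aligned members (12.8%), a difference of 29.2 points (22.5 to 36.1). Their median GC content was 52.3% against 47.3%, and 219 aligned at 80% identity or more to the surroundings of at least 1 other member. They were 76 L1Md_F, 123 L1Md_F2 and 27 L1Md_F3 peaks, and include the highest-scoring L1Md_F and L1Md_F3 peaks.

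Peak scores of the family were near those of the whole list and highest at the 5′ end. The score is the peak caller's own; its scale is not stated, and its values below 10 come in steps of 0.320. The median was 6.74 (95% order-statistic interval 6.74 to 7.06, quartiles 6.10 and 8.34, range 4.81 to 39.5) against 7.06 for all peaks. L1Md_F had a median of 7.70 (7.38 to 8.02), L1Md_F2 of 6.74 and L1Md_F3 of 6.42 (6.10 to 6.74), while L1Md_T had 6.42. A score at or above the list's median was found in 121 L1Md_F peaks (71.2%), 361 L1Md_F2 peaks (45.7%) and 49 L1Md_F3 peaks (38.3%), against 271 L1Md_T peaks (37.0%). The share was 25.5 points lower in L1Md_F2 than in L1Md_F (difference -25.5, -32.6 to -17.5). Over the whole family it was 48.8%, or 11.8 points (7.16 to 16.3) above L1Md_T. All other peaks had 51.8%, and the interval of that difference, -6.01 to 0.0191, included 0. Among peaks of 500 bp the sign of the latter turned, with 38.6% of members against 38.1% (difference 0.522 points, -2.67 to 3.81).

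The medians of the names were also taken within zones. Before ORF1 the median score was 7.70 in both L1Md_F (86 peaks) and L1Md_F2 (157 peaks), and 8.82 (6.42 to 10.6) in the 22 L1Md_F3 peaks. In the last 1 kb of ORF2 it was 6.10 for both L1Md_F2 and L1Md_F3, and after ORF2 it was 6.42 and 6.10. Fully unique members had a median of 7.06 and the 305 others one of 6.42, so uniqueness moved with the score as well, and its part was not tested.

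**Figure D3:**
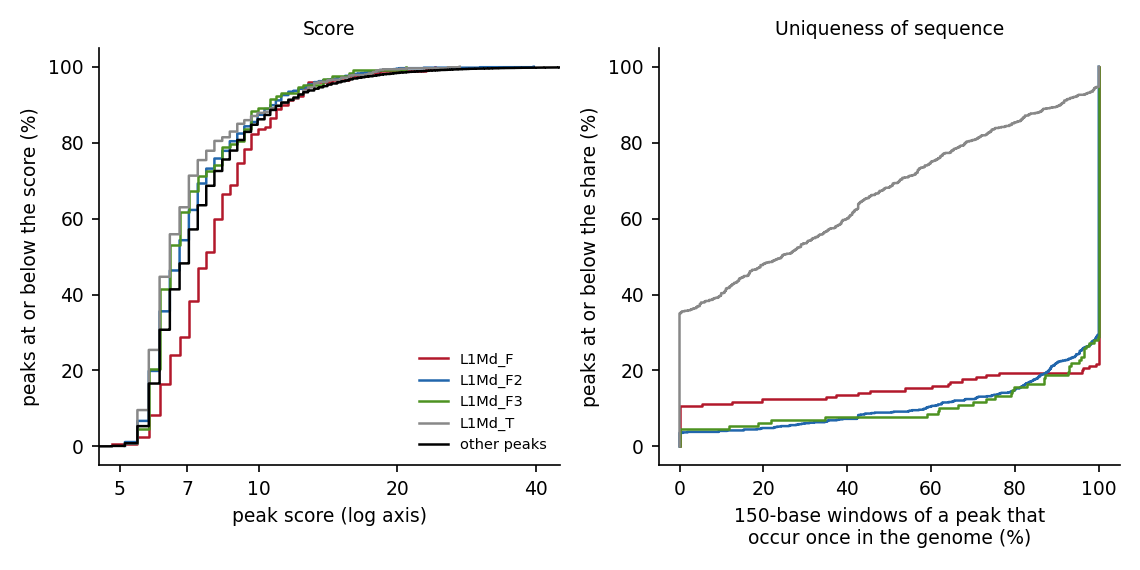
Left, percent of peaks (vertical axis) at or below each peak score (horizontal log axis) for L1Md_F, L1Md_F2, L1Md_F3, L1Md_T and all peaks outside the L1Md_F family. Right, percent of peaks at or below each share of 150-base windows that occur once in the genome, where the 3 L1Md_F names rise mostly at 100% and L1Md_T rises from 0. The score axis ends before the highest of the other peaks, and the L1Md_F score curve lies to the right of the others, with a median of 7.70.

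Of the members 894 (82.2%) were exactly 500 bp wide, against 77.1% of all peaks and 87.0% of L1Md_T peaks, and 9 were wider than 1 kb. The peak with the highest score, 39.5, was also the widest at 1484 bp. It is an L1Md_F2 peak at chrX:34467936-34469420, in the stretch after ORF2, 307 kb upstream of Btbd35f3, a gene of a BTB domain family. The second, with a score of 30.2, was an L1Md_F2 peak at chrX:33933882-33934629 near Btbd35f11 of the same family. Both lay in duplicated sequence, with 15.3% and 28.4% of their windows found once.

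The other 8 of the 10 highest-scoring members lay on autosomes, and 5 of these were placed before ORF1. An L1Md_F peak of score 24.1 at chr10:3470985-3471884 lay 68.8 kb upstream of Iyd, an iodotyrosine deiodinase. An L1Md_F peak of score 23.1 at chr4:122340915-122341824 had 9530002B09Rik as nearest gene and an L1Md_F2 peak of score 22.8 at chr4:59970938-59971850 had Mup4, a major urinary protein gene, at 10.7 kb. The 9530002B09Rik peak also lay in duplicated sequence, with 19.7% of its windows found once, against 81.9% for the Mup4 peak. The L1Md_F3 peak of score 20.9 at chr7:116792086-116792586 lay 288 kb downstream of the start of Nucb2, which encodes a calcium-binding protein.

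Of the remaining 4, 2 lay in introns and on the strand opposite to the gene. An L1Md_F2 peak of score 20.2 at chr16:59793455-59794221 was inside Epha6, an ephrin receptor gene, although its nearest transcription start site (TSS) was that of Arl6. An L1Md_F2 peak of score 19.9 at chr3:26704683-26705753 was inside Spata16, a gene of spermatogenesis. L1Md_F2 peaks of score 19.6 and 18.6 had the chitinase-like gene Chil4 and the vomeronasal receptor gene Vmn1r137 as nearest genes. The Vmn1r137 peak had only 1.91% of its windows found once.

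Members were found far from genes. The median distance to the nearest TSS was 117 kb (101 to 131) against 36.4 kb (35.7 to 37.1) for all other peaks, and 579 of 1087 members (53.3%) lay over 100 kb from one against 25.2% of the other peaks (difference 28.1 points, 25.1 to 31.1). L1Md_T had 53.1% (difference 0.124 points, -4.54 to 4.79). Distance to a TSS and overlap with genes were not taken for genomic copies without a peak. The part of the placing of the repeat itself was therefore not tested. Among the names L1Md_F lay farthest, with a median of 196 kb (155 to 256) against 105 kb (88.4 to 124) for L1Md_F2 and 94.2 kb (60.1 to 130) for L1Md_F3. Of L1Md_F peaks 17.6% lay on chromosome Y, against 1.14% of L1Md_F2 peaks. The distances of the names were not taken on autosomes alone, so the part of chromosome Y was not tested. No member lay within 1 kb of a TSS, which allows a share of up to 0.352%, where 606 other peaks (1.81%) did.

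**Figure D4:**
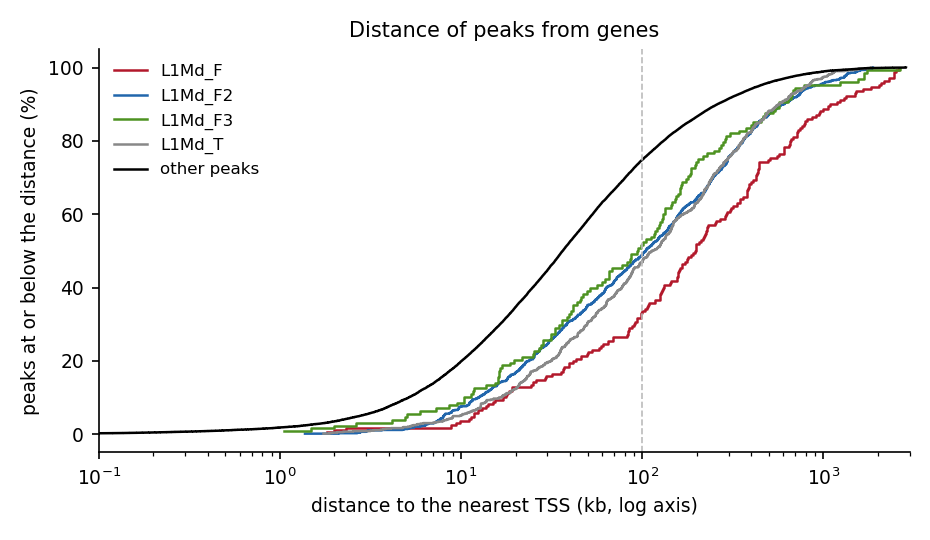
Percent of peaks (vertical axis) at or below each distance to the nearest TSS (horizontal log axis, kb) for the 3 L1Md_F names, L1Md_T and all peaks outside the L1Md_F family, with a dashed line at 100 kb. The L1 names lie to the right of the other peaks, and L1Md_F lies farthest, with a median of 196 kb.

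The 10 members nearest to a TSS lay 1.06 to 2.68 kb from one, and 5 of these genes belong to receptor or defensin families. An L1Md_F3 peak of score 6.74 lay 1.06 kb upstream of Gm13178. An L1Md_F2 peak of score 7.06 lay 1.38 kb upstream of the start of Ppef1, a protein phosphatase gene, and inside the gene as RefSeq draws it. An L1Md_F3 peak of score 5.78 lay 1.48 kb inside Sprr2a2, which encodes a proline-rich protein of the epidermis. The others were near Defa-ps12, Vmn2r81, Olfr747, Oas1h, Lep (leptin), Vmn2r116 and Olfr666, with scores from 5.46 to 8.02.

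Of the members on assembled chromosomes 272 of 1085 (25.1%, 22.6% to 27.7%) had their centre inside a RefSeq gene against 49.8% of other peaks (difference -24.7 points, -27.2 to -22.0) and 29.1% of L1Md_T peaks (difference -4.07 points, -8.28 to 0.0778). Only 189 (17.4%) were inside a protein-coding gene, and 3 lay in an exon, all of genes with predicted or pseudogene symbols. L1Md_F peaks were inside genes less often than L1Md_F2 peaks, with 15.9% against 26.8% (difference 10.9 points, 4.02 to 16.6). The part of the L1Md_F peaks on chromosome Y in this difference was not tested. In all, 184 protein-coding genes held a member, 19 of them 2 or more.

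Inside genes the element lay mostly on the strand opposite to the gene. The strand was read from the excess of A over T on the sense strand of L1, which gave the same strand as the alignment in 734 of 737 members (99.6%) where both could be read. Of 228 members with both strands known, 150 (65.8%, 59.4% to 71.6%) were antisense to their gene. L1Md_T peaks showed 62.8%, a difference of 3.03 points (-6.04 to 12.1). The strand of copies without a peak was not read. Gucy1a2, which encodes a subunit of the receptor for nitric oxide, held the most members, 3, of which the peaks with scores of 7.38 and 6.74 were antisense and the one with 5.78 was in sense. In Scn2a, a neuronal sodium channel gene, 2 L1Md_F2 peaks with scores of 9.31 and 6.74 were both in sense.

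The members had 875 different genes as nearest gene, 727 of them for 1 member and 36 for 3 or more. The gene nearest to most members was Gm20871, a Y-linked pseudogene, with 12 members among 76 peaks of any kind. The genes Btbd35f3, 9530002B09Rik, 4930568E12Rik, Api5, which encodes an inhibitor of apoptosis, and Efnb2, which encodes the ligand ephrin B2, were nearest to 5 members each. Tle1, a transcriptional corepressor gene, Adgrl3, which encodes a latrophilin adhesion receptor, Hnf4g, a nuclear receptor gene, and Gm20823 were nearest to 4 members each. Peaks of any kind numbered 39 for Btbd35f3, 31 for 9530002B09Rik, 26 for Gm20823 and 24 for Hnf4g. They numbered 15 for 4930568E12Rik and for Adgrl3, 14 for Efnb2, 12 for Tle1 and 11 for Api5. The members of Efnb2 had scores between 5.13 and 8.34 and lay 1108 to 1732 kb from its start, and the closest member of Api5 lay 18.1 kb away, so a nearest gene here need not be near.

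For the gene lists that bear on the study's subject, the genes nearest to a member were counted. Of the genes of BG and astroglia 64.1% were nearest to at least 1 peak of any kind, as were 70.4% of those of ECM-receptor interaction and 62.4% of those of axon guidance and migration, against 47.9% of all protein-coding genes. Of 39 genes of BG and astroglia, 3 (7.69%, 2.65% to 20.3%) were the nearest gene of a member, against 675 of 21774 protein-coding genes (3.10%). These were Cdh20, a cadherin gene, with an L1Md_F peak of score 5.78 at 1308 kb, Aqp4, the water channel of astroglia, with an L1Md_F2 peak of 7.38 at 26.5 kb, and Nfia, a transcription factor gene of glial development, with an L1Md_F2 peak of 6.74 at 296 kb upstream. Of 81 genes of ECM-receptor interaction 1 was (1.23%, 0.218% to 6.67%), the laminin gene Lama4 with an L1Md_F2 peak of 7.06 at 46.7 kb upstream.

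Of 85 genes of axon guidance and migration, 7 (8.24%, 4.05% to 16.0%) were the nearest gene of a member. They were the ephrin genes Efna5 and Efnb2, the ephrin receptor gene Epha5, the guidance ligand genes Slit2 and Sema3d, the netrin receptor gene Unc5d and the neuregulin receptor gene Erbb4. The highest score among their peaks was 8.99, for an L1Md_F2 peak 385 kb upstream of Epha5, and the member closest to a gene of this list lay 101 kb upstream of Slit2. None of 33 genes of the H3K9 and L1 silencing machinery was, which allows up to 10.4%. The lists and the background differ in gene length and in how isolated their genes are, which was not adjusted for.

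Members were spread over all chromosomes, with the most per Mb on chromosomes 7, X and 4. The autosomes had 0.179 members per Mb on chromosome 19 to 0.660 on chromosome 7, with a median of 0.365. Chromosome X had 0.579, chromosome 4 had 0.569 and chromosome 3 had 0.506. As a share of the peaks of a chromosome, members made up 8.15% on X and 7.60% on Y. The share was 4.97% on chromosome 3, 3.91% on chromosome 4 and 3.66% on chromosome 7. On chromosome 7 lay 8.82% of members and 7.52% of other peaks (difference 1.30 points, -0.271 to 3.15). Chromosome X held 99 members (9.10%) against 3.32% of other peaks (difference 5.78 points, 4.20 to 7.64) and 13.1% of L1Md_T peaks (difference -4.02 points, -7.09 to -1.10). The latter difference was -0.539 points (-5.30 to 3.64) among peaks with a score at or above the list's median, so it was no longer detectable there. Of the members on X, 82 were L1Md_F2. The share of genomic copies of the element on X was not taken, so the part of the placing of the repeat itself was not tested.

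Chromosome Y had a different mix. It held 43 members, of which 30 were L1Md_F, 9 L1Md_F2 and 4 L1Md_F3, so 17.6% of all L1Md_F peaks but 1.14% of L1Md_F2 peaks lay there (difference -16.5 points, -23.0 to -11.4). The part of the animals' sex in the counts on Y and on X was not tested. Only 3 of the 43 (6.98%) were fully unique in sequence, against 76.7% of members on autosomes, and 34 did not align to the reference copy. In the others at least 1 window occurs elsewhere in the genome as well. The median share of windows found once was 0% among members on Y, against 100% on autosomes. The part of reads set at 1 of several equal places in the count on Y was not tested.

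**Figure D5:**
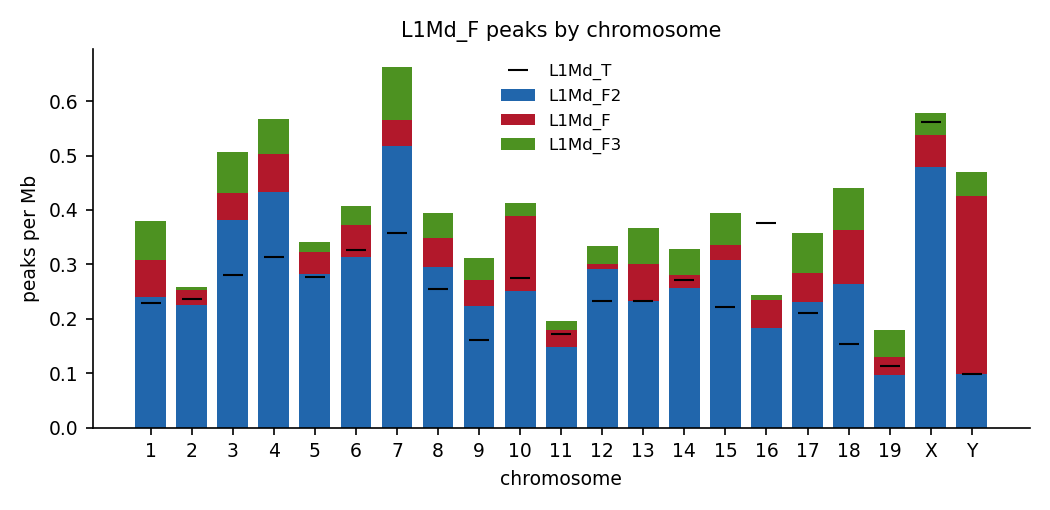
Peaks per Mb (vertical axis) on each chromosome (horizontal axis), stacked for L1Md_F2, L1Md_F and L1Md_F3, with a black dash for L1Md_T. Chromosome 7 is highest at 0.660 members per Mb, chromosome 19 lowest at 0.179, and L1Md_F makes up most of the bar on chromosome Y alone.

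Most members, like most L1Md_T peaks, had no other peak close by. Another peak of the list lay within 10 kb of 220 members (20.2%) against 33.7% of other peaks (difference -13.5 points, -15.8 to -11.0), 20.8% of L1Md_T peaks (difference -0.544 points, -4.38 to 3.19) and 17.8% of L1Md_A or L1Md_Gf peaks (difference 2.38 points, -2.28 to 6.63). Another member lay within 10 kb of 40 (3.68%). A second peak at the distance of the element's far end was rare on either side. Before ORF1, 5 of 265 members had a peak 3.5 to 6.5 kb away on the side where the rest of the element would lie and 9 had one on the outer side, in the last 1 kb of ORF2 the numbers were 11 and 7 of 176, and after ORF2 they were 15 and 18 of 388.

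A member lay in 623 of 1375 windows of 2 Mb, and 27 windows with 5 or more held 161 members. The windows with most members, 9 each, were at chr12:114000001-116000000, near microRNA genes and Adam6a, and at chr4:112000001-114000000, where all 9 had a Skint gene, of a cluster known for T cell development in the skin, as nearest gene. Next came windows with 8 members at chr7:14000001-16000000 near Obox homeobox genes and at chr7:22000001-24000000 near Vmn1r genes. In the order named, these windows held 72, 64, 86 and 81 peaks of any kind, so most of their peaks were not members. Whether they held more members than their number of peaks would give was not tested. The nearest gene of 27 members (2.48%) was a Vmn2r gene and of 16 (1.47%) a Vmn1r gene, of which the first differed from other peaks by 1.93 points (1.15 to 3.04) and the second by 0.831 points (0.260 to 1.74). Olfr genes, which encode olfactory receptors, were nearest to 31 members (2.85%), 1.76 points (0.920 to 2.94) above other peaks. Against L1Md_T the intervals of all 3 differences included 0 (Vmn2r -0.585 to 2.15, Vmn1r -0.985 to 1.32, Olfr -1.39 to 1.75 points).

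The base composition of the peaks followed the zone as well. GC content had a median of 48.3% (47.9% to 48.5%) over all members and 49.1% over the list, and of 52.6% (51.7% to 53.3%) in L1Md_F, 47.5% in L1Md_F2 and in L1Md_F3, and 44.1% in L1Md_T. It was 51.5% before ORF1, 39.0% in the middle, 42.3% in the last 1 kb of ORF2 and 47.1% after ORF2.

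The study concerns the Nfix-Setdb1 complex, and NFI factors bind motifs that hold TTGGCA. These letters, on either strand, were present in 182 of 1085 members (16.8%, 14.7% to 19.1%) against 29.5% of other peaks (difference -12.8 points, -14.9 to -10.4) and 11.1% of L1Md_T peaks (difference 5.69 points, 2.44 to 8.82). In the central 200 bp the difference from L1Md_T was 0.854 points (-1.64 to 3.21), so it was not detectable there. Among peaks of 500 bp, members showed 16.0% and all peaks of that width 26.4%. By zone the share was 21.9% before ORF1, 3.41% in the last 1 kb of ORF2, 11.9% after ORF2 and 13 of 30 (43.3%, 27.4% to 60.8%) in the middle. Before ORF1 the direction against L1Md_T was the opposite, with 45.5% of 55 L1Md_T peaks (difference -23.6 points, -37.4 to -10.0), while after ORF2 L1Md_T had 4.64% (difference 7.22 points, 1.79 to 11.5) and in the last 1 kb of ORF2 0.448% (difference 2.96 points, 0.781 to 6.80). In L1Md_F it was 24.7% and in L1Md_F2 15.9% (difference -8.82 points, -16.2 to -2.35). A match of 6 letters is a description of the sequence and not a binding site.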

How the data were processed

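H3K9me3 ChIP-seq libraries of BG, 2 WT, 2 MT and 2 input, were aligned by the authors to mm10 with Bowtie2 (2.2.8 in the submitters' processing notes), with 1 best place kept for reads that fit several and at most 1 read a position. Peaks were found and annotated with HOMER (4.10.1), with a filter on FDR and on fold over the local surroundings, and those of WT absent in MT were deposited as 1 list with a peak score, from merged libraries. The deposited score has no stated scale, and the list's header names an input-based comparison that could not be resolved further. No depth or value per library was used here, so no test between samples was made and the precision is that of counts of peaks. The authors' TSS distance could be recomputed from RefSeq GRCm38.p6 within 2 bp for 954 of 1076 members (88.7%). Sequences come from that assembly.

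Members and gene lists were chosen with earlier results of these data known. Members were aligned (blastn, BLAST+ 2.17.0, identity of at least 80% over at least 200 bases) to windows of 8 kb to either side of each member. The reference copy is the window with most members aligned among those where at most 5% aligned at 2 places; that limit was set after the window with most members, 920, turned out to hold more than 1 copy. Centres were projected on it along the best alignment. Of 200 simulated peaks with 12% of bases changed, 100% were placed within 25 bp. These were stretches of the reference copy itself, without insertions, deletions or foreign flanks. Aligned members before ORF1 had a median identity of 83.5%, so the simulation does not cover the placing of such peaks. ORF1 and ORF2 come from the most similar genomic copy with open frames. Segment copies had to cover 80% of a segment. Windows of 150 bases were counted exactly on both strands with Python 3.11.15. The sense strand needed 25 more A than T, or T than A. Shares have 95% Wilson intervals and differences Newcombe intervals. Named genes were the 10 genes nearest to most members, the genes of the 10 highest-scoring members and of the 10 nearest to a TSS, and genes of the 4 lists. Host genes, dense windows, exon and family counts, tandem units and zone borders were chosen after values were seen.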

Additional observations from a re-analysis of the deposited data

How the results depend on the processing

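No paired analysis was possible because the list holds merged libraries with no value per library, and for the same reason no library could be left out. Of 29 alternatives, 16 left a result within its 95% interval and 13 moved it. Several replace the quantity by a narrower or wider one, such as other distances, protein-coding genes only, 1 name only or a shorter stretch. The direction in which these shares moved was fixed in advance, so the counts do not measure how robust the results are. The share of the list moved to 2.87% on autosomes, 3.34% among peaks of 500 bp and 2.28% for the name L1Md_F2 alone, and the median score to 6.42 among peaks of 500 bp. The share inside a gene moved to 17.4% for protein-coding genes, the share far from a TSS to 66.4% at 50 kb, and the share with another peak nearby to 9.65% at 5 kb and 36.5% at 20 kb. Copies with a peak in the last segment moved from 0.599% to 0.200% for peaks with a score at or above the list's median. TTGGCA moved to 7.56% and GC content to 50.0% in the central 200 bp. The motif's difference from L1Md_T fell to 0.854 points (-1.64 to 3.21) there. Of 7 alternatives chosen after seeing the data, restriction to sequence found once moved the share on X to 6.92% and the share of copies to 0.738%. The share of aligned members outside the middle, 96.5%, stayed between 95.3% and 96.5% under its 4 alternatives. Among members with a score at or above the list's median, the lower share on X than in L1Md_T was -0.539 points (-5.30 to 3.64). The peaks' depth is unknown, so marking below the caller's threshold could not be seen.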
